A study of Mus musculus with 4 samples.

Results

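A set of 31 genes that mark the neurons and glia of the gut wall was followed through 4 arrays of mouse ileum RNA. The genes were taken as a list of symbols rather than from measured values, and each was matched to its probes through the probe's RefSeq accession. All 31 had a probe, among 32369 genes and unnamed transcripts on the array. The groups were 2 metformin samples and 2 control samples of total ileal RNA. The metformin samples came from C57BL/6J male mice aged 10 weeks that received oral metformin, a glucose-lowering biguanide, at 1000 mg/kg. The control samples came from C57BL/6J male mice of the same age. The labels give no length of treatment and no vehicle, and the text on dosing is the same for every sample, so the groups rest on the sample titles. Nothing in the labels ties the samples of a group to separate animals, so p-values here reflect only sample-to-sample spread, part of which could be technical.

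The enteric nervous system lies within the gut wall, in a plexus between the muscle layers and another beneath the mucosa. Its neurons drive contraction through acetylcholine and substance P and relaxation through nitric oxide and VIP, and glia surround their cell bodies and fibres. Both cell types descend from neural crest cells, whose survival and migration depend on GDNF signalling through RET and on endothelin signalling through EDNRB.

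Several neuropeptide and granin genes are known targets of cyclic AMP signalling. Promoter windows are shown first as background. The members of this class took different orders across the 4 arrays, and no link between windows and orders was tested. Only class members whose window held the core described below are shown: Vip, Tac1, Cartpt and Scg2. Penk, Gal and Npy are not shown, either for want of a window or because theirs lacked the core. The windows hold the 250 bases before the transcript start, 5′ to 3′ on the gene's strand, from RefSeq on GRCm38.p6: chr10:5638968-5639217 (+) for Vip, chr6:7554811-7555060 (+) for Tac1, chr13:99900684-99900933 (-) for Cartpt and chr1:79440027-79440276 (-) for Scg2. Capitals mark the core TGACG of the cyclic AMP response element or its reverse complement CGTCA, which overlap within the full element TGACGTCA.
Vip: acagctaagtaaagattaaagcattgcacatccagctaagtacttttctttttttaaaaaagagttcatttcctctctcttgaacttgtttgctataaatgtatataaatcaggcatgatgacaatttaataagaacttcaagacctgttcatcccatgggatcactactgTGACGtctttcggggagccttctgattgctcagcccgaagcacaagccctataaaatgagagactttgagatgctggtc
Tac1: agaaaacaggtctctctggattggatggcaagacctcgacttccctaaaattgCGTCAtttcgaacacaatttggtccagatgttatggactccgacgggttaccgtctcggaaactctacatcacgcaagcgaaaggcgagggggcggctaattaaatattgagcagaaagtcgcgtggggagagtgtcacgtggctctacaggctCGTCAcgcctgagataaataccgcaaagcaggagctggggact
Cartpt: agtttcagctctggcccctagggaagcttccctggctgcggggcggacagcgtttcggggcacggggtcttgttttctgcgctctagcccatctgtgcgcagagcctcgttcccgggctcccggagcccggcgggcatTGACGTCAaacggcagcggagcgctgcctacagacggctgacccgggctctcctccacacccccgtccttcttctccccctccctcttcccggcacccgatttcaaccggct
Scg2: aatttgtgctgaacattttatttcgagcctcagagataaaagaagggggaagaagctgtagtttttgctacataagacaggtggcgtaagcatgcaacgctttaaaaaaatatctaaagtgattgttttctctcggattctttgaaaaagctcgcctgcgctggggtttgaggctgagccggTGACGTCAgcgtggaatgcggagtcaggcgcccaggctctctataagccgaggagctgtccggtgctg

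A window was found for 21 of the 31 members, and some members had several, giving 25 windows. The full element TGACGTCA stood in 2 of the 25 (8%), those of Cartpt and Scg2, against 1.55% of all 32851 windows of the same length. The core TGACG, on either strand, stood in 12 of the 25 (48%), which belonged to 10 members, against 17.8% of all windows. In the Vip window the core began 79 bases before the start, and in the Tac1 window 2 cores on the minus strand began 197 and 43 bases before it. The letters TATAAA occurred in 3 member windows (12%), those of Vip, Prph and Elavl3, against 12.4% of all windows. The letters TTCAGCACC, the left part of the RE1 element bound by the repressor REST in non-neuronal cells, occurred in 0 member windows and in 0.301% of all windows. A match here describes letters in a window and does not show a bound site.

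Levels are given as relative log2 signal, the log2 of the array's processed signal minus that array's 75th percentile over probes. On this scale the levels of different probes are not comparable, so each gene is set only against itself. The scanner software calls a probe well above background or not on each array, and a gene was kept for testing if its probe met that call in both samples of at least 1 group. Of the 31 members, 23 were kept, and 19 of the 23 cleared that call on every array. Another 4 (Vip, Stmn2, Uchl1, Nefl) were kept only through the control arrays, so each had a dim metformin value by construction. The remaining 8 (Npy, Nefm, Nos1, Chrna3, Calb2, Gfra1, S100b, Gfap) were not kept.

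The arrays of a group did not resemble each other most, and both samples numbered 1 stood apart. Over the 21649 genes and transcripts tested, Pearson's r was 0.993 between metformin 2 and control 2, 0.976 between metformin 1 and control 1, 0.967 within the metformin pair and 0.973 within the control pair, across genes, which are not independent replicates. Control 1 held the highest smooth muscle signal: Myh11, the smooth muscle myosin heavy chain, had relative log2 signals of -5.04 and -3.80 in the metformin samples, against 1.42 and -3.93 in the control samples. Metformin 1 was low in ileal genes: Fabp6, the ileal bile acid binding protein, had relative log2 signals of 4.16 and 8.69 in the metformin samples, against 8.94 and 8.29 in the control samples. Lct, lactase, a gene of the proximal small intestine, had 8.43 and 4.83 in the metformin samples, against 6.10 and 5.61 in the control samples. Medians are therefore given with all arrays, without control 1, and for metformin 2 against control 2 alone. This holds for all kept members and for the neuropeptide, neuron structure and glial classes.

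None of the enteric neuron and glia genes passed. With limma fitted over all genes, 0 of the 23 kept members were lower and 0 were higher after Benjamini-Hochberg adjustment, as for all genes tested (0% lower and 0% higher, smallest adjusted p = 0.999999). At an unadjusted limma p under 0.05 there were 347 genes in all, 75 higher and 272 lower with metformin, among them 1 member, Ednrb. The log2 difference, metformin minus control, was negative for 18 of the 23 kept members and positive for 5, with a median of -0.83 against a median of 0.06 over all genes tested. The arrays did not overlap between groups, with metformin lower, for 6 kept members (Vip, Penk, Tubb3, Elavl3, Gfra2 and Ednrb), where 8.57% of all genes tested did so. They did not overlap with metformin higher for 0 members, where 12.3% of all genes did so. Group means at least 2-fold apart, together with no overlap, were found for 5 members, all of these but Ednrb, and for 2.32% of all genes. The fold is that of the means, and the arrays themselves lay closer. In these 5 the nearest metformin sample minus control 2 ranged from -0.55 for Gfra2 to -0.18 for Vip on the log2 scale. Since the filter itself favoured a low metformin value in the 4 members kept through the control arrays, Vip among them, the counts were repeated on probes well above background on every array. Of the 19 members left, 14 differences were negative and 5 positive, 5 members were lower without overlap (8.37% of all genes so filtered) and 4 at least 2-fold lower without overlap (1.91%).

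The negative median rested on control 1, which was the highest of the 4 arrays for 18 of the 23 kept members, against 21.8% of all genes tested, and for 14 of the 19 well above background throughout. Its level was at least 2-fold above control 2 for 16 of the 23, against 10.3% of all genes. These 16 included all 4 members kept only through the control arrays, and the count was 12 of the 19 well above background throughout. Metformin 1 was the highest array for 3 kept members (Snap25, Sox10, Erbb3), metformin 2 for 2 (Tac1, Scg2) and control 2 for 0. Without control 1 the median log2 difference of the kept members was 0.10, with 12 positive and 11 negative. Over all genes tested it was then 0.12, with 12846 positive and 8803 negative. For metformin 2 against control 2 alone the median was 0.084 for the members and 0.068 over all genes. The members' median was -0.90 without metformin 1, and -0.59 over members well above background on every array. Set against control 2, both metformin samples were below it for 6 members (26.1%, against 25.2% of all genes tested). Both were above it for 6 (26.1%, against 42.6% of all genes), and they lay on either side of it for 11. Metformin 2 lay within 2-fold of control 2 for 22 of the 23 kept members, and metformin 1 for 14, given here without a share over all genes. Over all genes tested, metformin 2 and control 2 were also the most alike pair of arrays (r = 0.993). These counts therefore do not set the members apart from other genes. In bulk tissue, fewer cells of a type and less RNA per cell cannot be told apart.

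**Figure D1:**
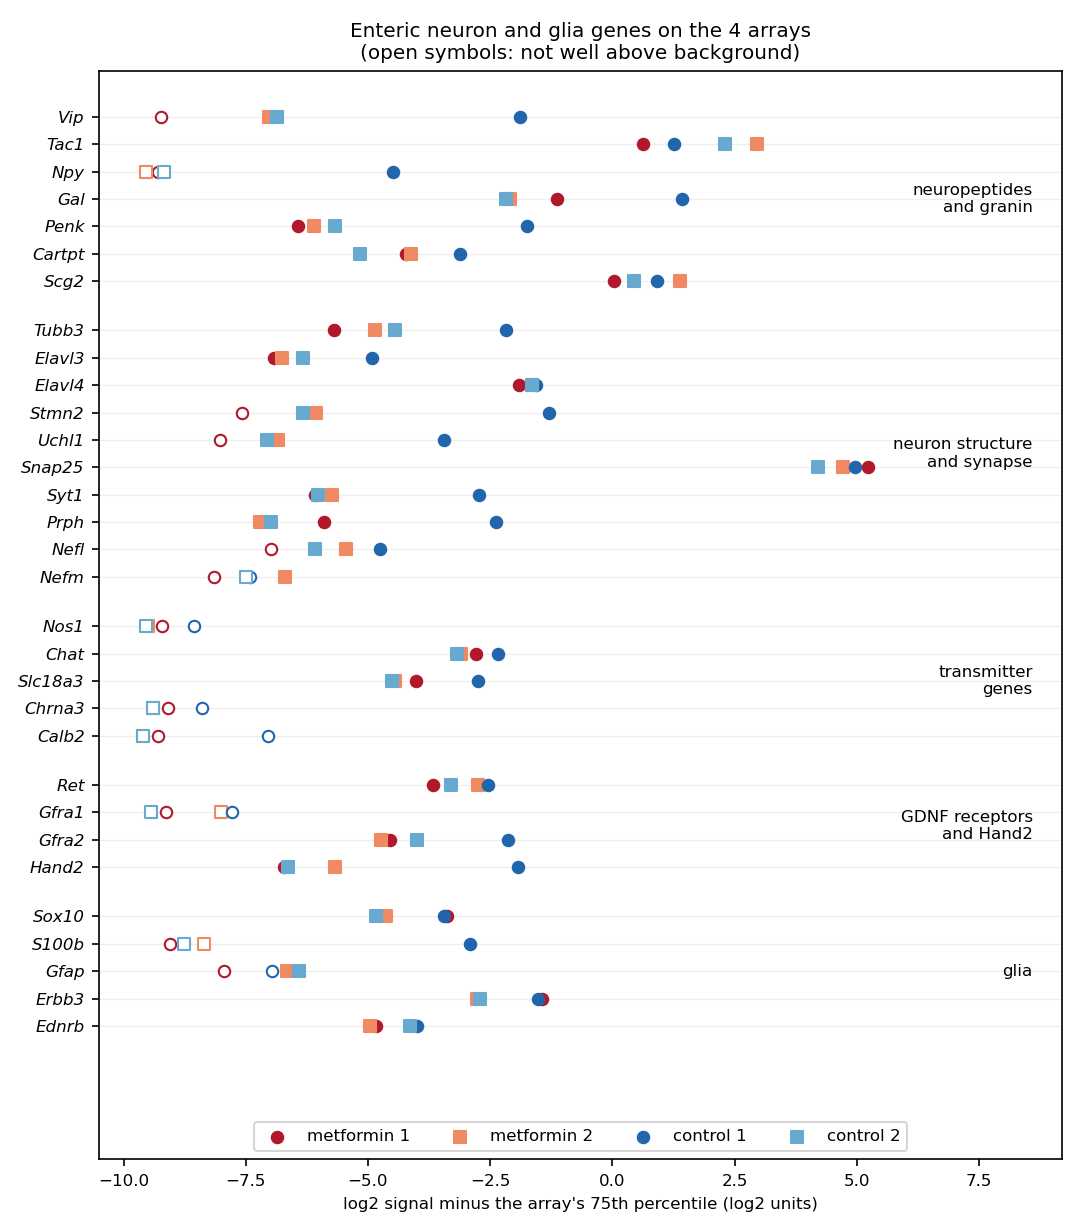
Relative log2 signal (x axis, log2 units) of all 31 enteric neuron and glia genes (rows, by role) on each array. Circles are samples numbered 1 and squares samples numbered 2, red for metformin and blue for control, and open symbols were not well above background. Control 1 lies furthest right for 18 of the 23 kept genes.

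Neuropeptide genes differed widely among themselves. Vip encodes vasoactive intestinal peptide, a relaxant transmitter of gut muscle and a secretagogue. Its relative log2 signal was -9.23 and -7.03 in the metformin samples, against -1.89 and -6.86 in the control samples. The groups did not overlap, but the level in control 1 stood alone: it was 31.3-fold above control 2, while metformin 2 minus control 2 was -0.18 on the log2 scale. Metformin 1 was not well above background, and control 1 was at least 36.4-fold above it. The log2 difference of Vip was -3.76 (SE 1.85, 95% interval -8.69 to 1.18) with all arrays and -1.27 (SE 0.94) without control 1. Here and below, an SE without control 1 comes from the metformin pair and limma's pooled prior, with the lone control sample assumed to vary like the metformin samples.

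Penk encodes the precursor of the enkephalins, opioid peptides of enteric neurons. Its relative log2 signal was -6.44 and -6.10 in the metformin samples, against -1.74 and -5.68 in the control samples. Again the groups did not overlap and control 1 was the high array, 15.3-fold above control 2. The log2 difference of Penk was -2.55 (SE 1.36) with all arrays and -0.58 (SE 0.57) without control 1. Gal, the gene of galanin, had relative log2 signals of -1.13 and -2.10 in the metformin samples, against 1.42 and -2.17 in the control samples. For galanin the groups overlapped, metformin 2 and control 2 lay side by side, and control 1 was 12.01-fold above control 2. Its log2 difference was -1.24 (SE 1.28) with all arrays and 0.56 (SE 0.65) without control 1.

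Tac1 and Scg2 ran in another order. Tac1 encodes substance P and neurokinin A, and Scg2 encodes secretogranin II, a protein of dense-core granules. Relative log2 signals of Tac1 were 0.62 and 2.96 in the metformin samples, against 1.26 and 2.30 in the control samples. Those of Scg2 were 0.03 and 1.38 in the metformin samples, against 0.92 and 0.43 in the control samples. In both genes metformin 2 was the highest array and metformin 1 the lowest, so the metformin samples enclosed the controls. The log2 difference of Scg2 was 0.03 (SE 0.56). Both genes are also made by enteroendocrine cells, whose levels are given further on.

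Cartpt encodes the CART peptide of enteric and brain neurons. It had relative log2 signals of -4.21 and -4.12 in the metformin samples, against -3.12 and -5.16 in the control samples, so the metformin pair lay between the controls. Npy, neuropeptide Y, was well above background only in control 1, with -9.30 and -9.54 in the metformin samples, against -4.49 and -9.18 in the control samples. Control 1 was at least 6.01-fold above metformin 1 and at least 7.42-fold above metformin 2 and control 2 for Npy. Over the 6 kept genes of the class the median log2 difference was -0.63 with all arrays, -0.12 without control 1 and 0.36 for metformin 2 against control 2 alone. It was -0.03 over the 5 genes well above background on every array, that is without Vip, and -1.24 with no filter on dim probes.

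In the class of neuron structure and synapse, the median log2 difference of the 9 kept genes was -1.53, with 8 negative and 1 positive, but -0.14 without control 1 and 0.22 for metformin 2 against control 2 alone. Over the 6 genes well above background on every array it was -1.37, with 5 negative and 1 positive. Tubb3, the neuronal beta-tubulin, had relative log2 signals of -5.69 and -4.86 in the metformin samples, against -2.19 and -4.44 in the control samples. The groups did not overlap, and control 1 was 4.77-fold above control 2. The log2 difference of Tubb3 was -1.96 (SE 0.85, 95% interval -4.24 to 0.32), and -0.83 (SE 0.62) without control 1.

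Elavl3, a neuronal RNA-binding protein of the Hu family, also showed no overlap. Its relative log2 signal was -6.92 and -6.75 in the metformin samples, against -4.93 and -6.32 in the control samples, with control 1 the high array. The log2 difference of Elavl3 was -1.21 (SE 0.55), and -0.52 (SE 0.56) without control 1. It was -0.06 with normexp background correction and -0.26 in the deposited table after scaling. On its tested probe Elavl4, another Hu protein, read nearly alike on every array. Its relative log2 signals were -1.91 and -1.63 in the metformin samples, against -1.57 and -1.65 in the control samples. Control 1 was the highest array for this probe as well, by less than in any other gene of this class where it led. A dimmer Elavl4 probe, not kept, read otherwise, at -9.13 and -9.44 in the metformin samples, against -5.755 and -9.44 in the control samples. That probe was well above background on 1 array only.

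Stmn2, a tubulin-binding protein of growing neurites, and Uchl1, the pan-neuronal marker PGP9.5, were dim in metformin 1. Relative log2 signals of Stmn2 were -7.58 and -6.07 in the metformin samples, against -1.29 and -6.33 in the control samples. Those of Uchl1 were -8.03 and -6.84 in the metformin samples, against -3.45 and -7.06 in the control samples. In each gene control 1 was high, metformin 2 lay just above control 2, and metformin 1 was not well above background. Control 1 exceeded control 2 by 32.8-fold for Stmn2 and 12.3-fold for Uchl1. The log2 difference was -3.02 (SE 1.79) for Stmn2 and -2.18 (SE 1.31) for Uchl1, or -0.50 (SE 0.76) and -0.37 (SE 0.69) without control 1.

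Syt1, the calcium sensor of vesicle release, had relative log2 signals of -6.09 and -5.74 in the metformin samples, against -2.73 and -6.03 in the control samples. Prph, the intermediate filament peripherin, had -5.89 and -7.21 in the metformin samples, against -2.38 and -6.98 in the control samples. In both, control 1 was high and control 2 lay between the metformin samples. Nefl, the neurofilament light chain, had -6.98 and -5.44 in the metformin samples, against -4.75 and -6.08 in the control samples, and metformin 1 was not well above background. The medium chain Nefm was well above background only in metformin 2, with -8.15 and -6.70 in the metformin samples, against -7.41 and -7.49 in the control samples. Of these 4 genes only Nefm was not at its highest in control 1.

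Snap25, a membrane protein of vesicle fusion in neurons and endocrine cells, was the only kept gene of this class with a positive difference. It had relative log2 signals of 5.23 and 4.72 in the metformin samples, against 4.96 and 4.21 in the control samples. The groups overlapped, with control 2 lowest and metformin 1 highest.

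**Figure D2:**
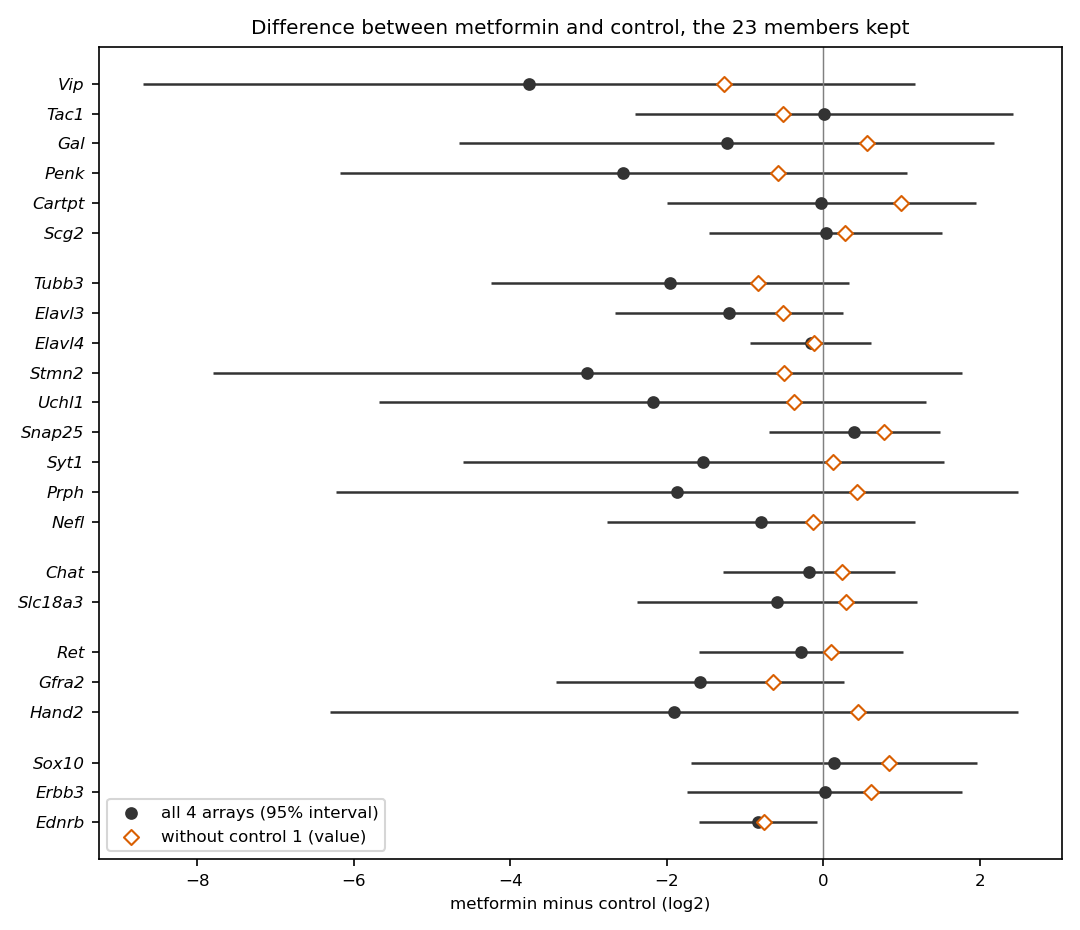
Log2 difference, metformin minus control (x axis), for the 23 kept genes (rows, by role). Filled points with lines are the limma estimates and 95% intervals from all 4 arrays, and open diamonds are the estimates without control 1. Of the 23 intervals only that of Ednrb lies wholly below 0, before adjustment, and the diamonds lie nearer 0 for Vip, Penk, Stmn2 and Uchl1.

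Of the 5 transmitter genes only 2 were kept, both of the cholinergic pathway. Slc18a3, the vesicular acetylcholine transporter, had relative log2 signals of -4.02 and -4.44 in the metformin samples, against -2.75 and -4.52 in the control samples. Chat, which makes acetylcholine and whose locus encloses Slc18a3, had -2.79 and -3.10 in the metformin samples, against -2.33 and -3.18 in the control samples. For both, control 1 was highest, control 2 lowest and the metformin samples lay between them. The log2 difference was -0.59 (SE 0.67) for Slc18a3 and -0.19 (SE 0.41) for Chat, or 0.29 (SE 0.57) and 0.24 (SE 0.56) without control 1. Nos1, the neuronal nitric oxide synthase, Chrna3, a ganglionic nicotinic receptor subunit, and Calb2, the calcium-binding protein calretinin, were not well above background on any array. The nominal relative log2 signals of the 3 ranged from -9.61 to -7.04.

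Among the receptors of the GDNF family, Gfra2 and Ret were well above background on all 4 arrays. Gfra2, the co-receptor for neurturin, had relative log2 signals of -4.56 and -4.74 in the metformin samples, against -2.14 and -4.00 in the control samples. The groups did not overlap, although control 1 was 3.64-fold above control 2. Its log2 difference was -1.58 (SE 0.69, 95% interval -3.41 to 0.26), and -0.64 (SE 0.56) without control 1. Ret, the receptor tyrosine kinase that signals for GDNF, had relative log2 signals of -3.67 and -2.74 in the metformin samples, against -2.54 and -3.30 in the control samples. The groups overlapped, and the log2 difference of Ret was -0.29 (SE 0.49), or 0.10 (SE 0.64) without control 1.

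Gfra1, the co-receptor for GDNF itself, was not well above background on any array, with nominal relative log2 signals from -9.45 to -7.78. Hand2, a transcription factor of developing enteric neurons that gut mesenchyme also expresses, had -6.72 and -5.68 in the metformin samples, against -1.93 and -6.64 in the control samples. Control 1 was 26.2-fold above control 2 for Hand2, and control 2 lay between the metformin samples. The log2 difference of Hand2 was -1.91 (SE 1.64) with all arrays and 0.45 (SE 0.66) without control 1. With normexp background correction it was -0.71. The median log2 difference over Gfra2, Hand2 and Ret was -1.58, and 0.10 without control 1.

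Glial genes did not take a common order, and Ednrb had its samples close together within each group. Ednrb encodes the endothelin receptor of the enteric neural crest lineage, and cells outside the nervous system make it too. Its relative log2 signal was -4.83 and -4.97 in the metformin samples, against -4.00 and -4.15 in the control samples. The groups did not overlap, and the gap within each group was 0.13 in the metformin pair and 0.15 in the control pair. The log2 difference was -0.83 (SE 0.28, 95% interval -1.58 to -0.08), which did not pass after adjustment (limma unadjusted p = 0.0372, Benjamini-Hochberg adjusted p = 1). It was -0.76 without control 1, -0.43 in the deposited table after scaling and -0.22 with normexp background correction. Another kept probe of Ednrb read otherwise, at -5.04 and -6.38 in the metformin samples, against -5.20 and -6.01 in the control samples, with overlap and a log2 difference of -0.10.

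Sox10, the transcription factor that specifies enteric glia, and Erbb3, a neuregulin receptor of glia that intestinal epithelium also expresses, split the samples by their number. Relative log2 signals of Sox10 were -3.38 and -4.62 in the metformin samples, against -3.44 and -4.84 in the control samples. Those of Erbb3 were -1.44 and -2.77 in the metformin samples, against -1.53 and -2.71 in the control samples. In both genes metformin 1 and control 1 were high and nearly equal, and metformin 2 and control 2 were low and nearly equal. Metformin 1 was 2.36-fold above metformin 2 for Sox10 and 2.51-fold for Erbb3. Control 1 was 2.63-fold above control 2 for Sox10 and 2.27-fold for Erbb3. The log2 difference between the groups was 0.14 (SE 0.68) for Sox10 and 0.02 (SE 0.66) for Erbb3, or 0.835 and 0.61 without control 1. Over the 3 kept glial genes the median log2 difference was 0.02 with all arrays and 0.61 without control 1. For metformin 2 against control 2 alone the glial median was -0.055, and with no filter on dim probes it was -0.61.

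S100b, a calcium-binding protein of glia, was well above background only in control 1. Its relative log2 signal was -9.05 and -8.36 in the metformin samples, against -2.91 and -8.77 in the control samples. Control 1 was at least 17.9-fold above metformin 1 and at least 22.1-fold above metformin 2 and control 2. Gfap, the intermediate filament of astrocytes and some enteric glia, had 3 probes, none of which was kept. The brightest of them was well above background in metformin 2 and control 2 only, with -7.95 and -6.66 in the metformin samples, against -6.97 and -6.40 in the control samples.

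**Figure D3:**
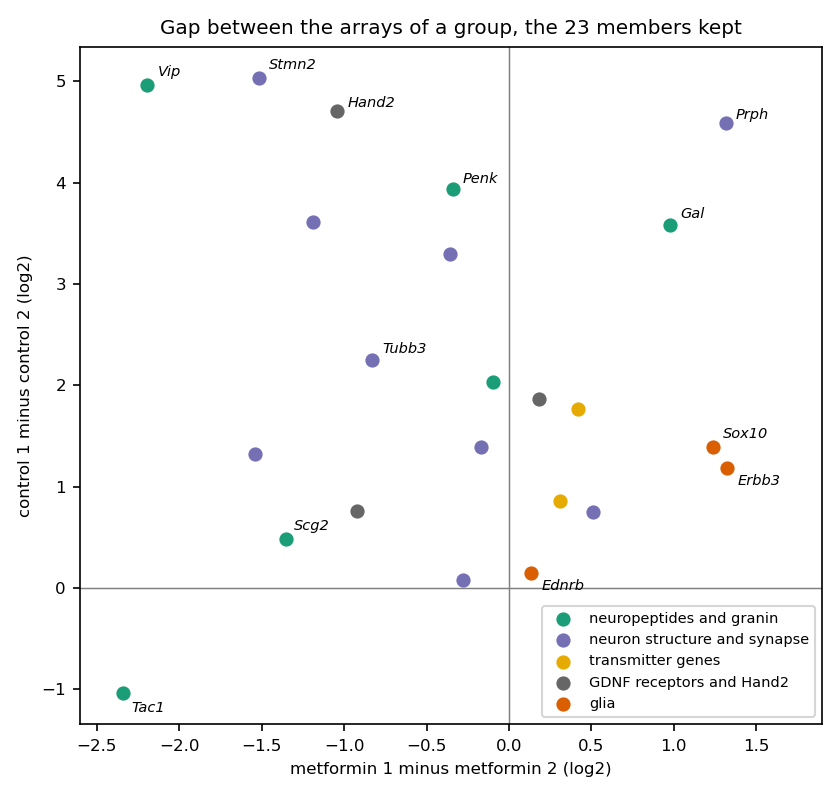
Gap between the samples of a group for the 23 kept genes, metformin 1 minus metformin 2 on the x axis and control 1 minus control 2 on the y axis (log2 units), coloured by role. Most points lie above the horizontal line, Tac1 alone below it, and Sox10, Erbb3 and Prph sit where both gaps exceed 1 log2 unit.

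Companion lists of related genes were read in the same way, though they were not limited to genes specific to enteric neurons and glia. Thy1 stood on both the neuronal and the fibroblast list, and Chgb on both the peptide and the enteroendocrine list. Of 40 other neuronal genes 31 were kept, 10 with a positive and 21 with a negative log2 difference and a median of -0.25, and control 1 was the highest array for 18. Phox2a, a transcription factor of autonomic neurons, had relative log2 signals of -5.60 and -2.94 in the metformin samples, against -3.17 and -4.51 in the control samples. Both control values lay between the metformin samples, so the groups overlapped.

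Another 18 neuropeptide and granule genes gave 13 kept, 5 positive and 8 negative, with a median log2 difference of -0.07. Nmu, neuromedin U, had relative log2 signals of -4.59 and -6.22 in the metformin samples, against -2.85 and -6.40 in the control samples. Calcb, a calcitonin gene-related peptide, had -6.87 and -3.01 in the metformin samples, against -3.70 and -5.07 in the control samples. Nmu was highest in control 1 and Calcb in metformin 2. Of 20 other glial and Schwann cell genes 11 were kept, 6 positive and 5 negative, with a median of 0.05.

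Ligands and peptide receptors that pair with the members were also read. Of 21 listed, 16 were kept, 7 with a positive and 9 with a negative log2 difference and a median of -0.03. Gdnf, the ligand of RET that gut muscle and glia secrete, had relative log2 signals of -6.17 and -6.62 in the metformin samples, against -3.05 and -5.46 in the control samples, without overlap. Nrtn, neurturin, had -0.11 and -0.37 in the metformin samples, against 0.54 and -0.26 in the control samples, with overlap. Without control 1 the medians of these 4 companion lists were 0.26 for the neuronal, 0.34 for the peptide, 0.19 for the glial and 0.54 for the ligand and receptor genes. Over all genes tested the median was then 0.12. No gene of any companion list passed the limma test after adjustment.

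Markers of the muscle layers were highest in the same array as most of the enteric genes. All 15 kept smooth muscle genes, of 18 listed, were highest in control 1 and lower in the metformin mean, with a median log2 difference of -2.94, or -0.49 without control 1. The log2 of their summed signal was 3.95 and 4.69 in the metformin samples, against 8.07 and 4.86 in the control samples, and all 15 were well above background on all 4 arrays. Acta2, smooth muscle actin, had relative log2 signals of -0.99 and -0.30 in the metformin samples, against 4.93 and 0.00 in the control samples. Control 1 thus carried the highest signal of both muscle and most enteric neuron genes, and the part of muscle content in the enteric values was not tested.

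A list for interstitial cells of Cajal, the pacemaker cells beside the enteric plexus, differed less between the controls. Besides Kit, Ano1 and Etv1 it held genes not specific to these cells, such as Cd34, Gja1, Kcnn3, P2ry1 and Pdgfra. Pdgfra stood on the fibroblast list too. Of the 9 listed genes 8 were kept, 1 positive and 7 negative, with a median log2 difference of -0.80, and -0.70 without control 1. Kit, the receptor tyrosine kinase of these cells, had relative log2 signals of -0.76 and -0.64 in the metformin samples, against 0.20 and -0.03 in the control samples. Ano1, their calcium-activated chloride channel, had -0.51 and -0.02 in the metformin samples, against 0.64 and 0.47 in the control samples. Neither gene overlapped between groups. The log2 of the list's summed signal was 2.35 and 2.08 in the metformin samples, against 2.80 and 2.42 in the control samples.

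All 12 fibroblast genes were kept, 1 positive and 11 negative, with a median log2 difference of -2.08, and -1.34 without control 1. Col1a1 had relative log2 signals of -1.31 and -2.22 in the metformin samples, against 1.27 and -0.44 in the control samples. Col1a2 had -0.26 and -1.44 in the metformin samples, against 2.13 and 0.33 in the control samples. Both collagen genes were lower in the metformin samples without overlap. The log2 of the list's summed signal was 4.28 and 2.96 in the metformin samples, against 5.54 and 4.42 in the control samples. Mesothelial genes (3 kept of 6) had a median log2 difference of 0.02. Msln had -2.27 and -3.70 in the metformin samples, against -4.18 and -2.12 in the control samples, and Upk1b had -2.36 and -1.46, against -1.67 and -2.20.

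Enteroendocrine cells share granule and fusion genes with neurons, and their list stood highest in metformin 2. All 16 genes were kept, 13 positive and 3 negative, with a median log2 difference of 0.33, and 12 were highest in metformin 2. Chga, chromogranin A, had relative log2 signals of 3.83 and 4.44 in the metformin samples, against 3.68 and 3.95 in the control samples. Chgb, chromogranin B, had 4.95 and 5.85 in the metformin samples, against 4.88 and 5.18 in the control samples. Metformin 2 was the top array for both, as it was for Tac1 and Scg2. The log2 of the list's summed signal was 7.35 and 8.13 in the metformin samples, against 7.53 and 7.32 in the control samples, and its part in the values of Tac1, Scg2 and Snap25 was not tested.

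Epithelial genes served as a measure of the mucosa. All 12 were kept, 11 positive and 1 negative, with a median log2 difference of 0.21, and the log2 of their summed signal was 10.80 and 10.76 in the metformin samples, against 10.67 and 10.38 in the control samples. Epcam had relative log2 signals of 5.48 and 5.20 in the metformin samples, against 5.43 and 4.996 in the control samples, and Vil1, villin, had 7.99 and 7.55, against 7.63 and 7.26. The range over the arrays was narrower for epithelial than for muscle signal. The 9 ileal genes had a median log2 difference of -0.92, with Slc10a2, the ileal bile acid transporter, at -0.90 and 4.92 in the metformin samples, against 4.45 and 3.28 in the control samples. The 9 kept proximal genes, of 10 listed, had a median of 0.71, with Gata4 at 2.32 and -0.44 in the metformin samples, against 0.27 and 0.45 in the control samples. In the named genes of both lists metformin 1 was the array apart, and the part of this difference in region in the enteric values was not tested.

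**Figure D4:**
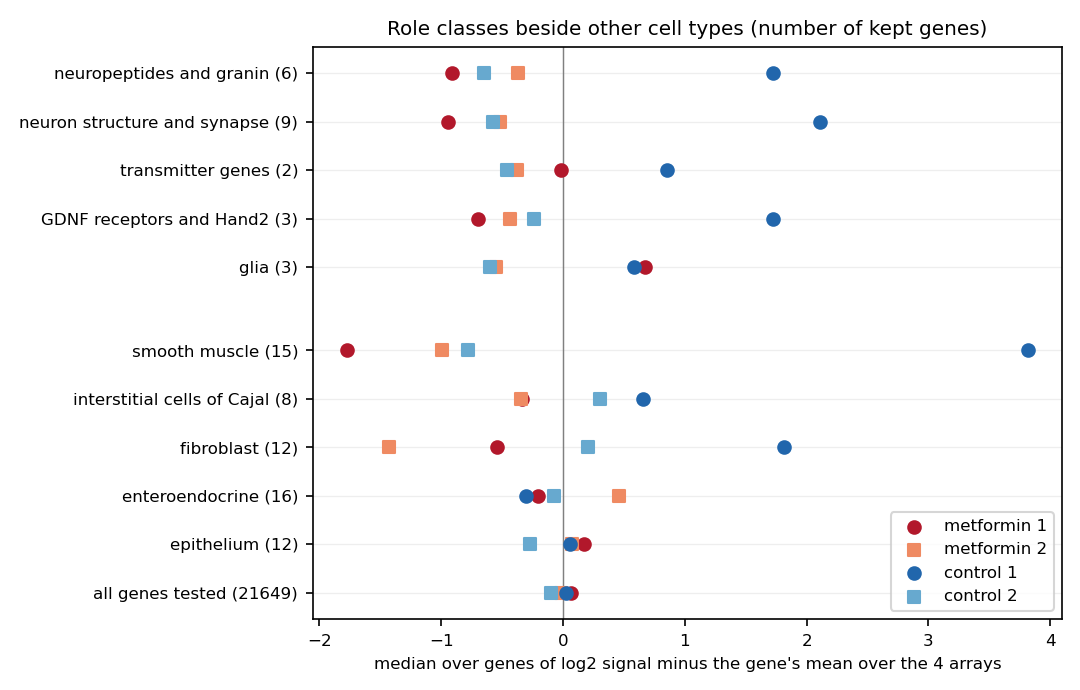
Median over genes of the relative log2 signal minus the gene's own mean over the 4 arrays (x axis, log2 units), for the 5 role classes of enteric genes, 5 lists of other cell types and all genes tested (rows, with the number of genes kept). Control 1 lies at 2.11 for neuron structure and 3.82 for smooth muscle, while the glial class has metformin 1 at 0.67 and control 1 at 0.58.

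The classes can be set side by side on that scale, as deviations from each gene's mean. The median deviation of neuron structure genes was -0.94 and -0.52 in the metformin samples, against 2.11 and -0.57 in the control samples. For neuropeptide genes it was -0.92 and -0.37 in the metformin samples, against 1.72 and -0.65 in the control samples. For glial genes it was 0.67 and -0.55 in the metformin samples, against 0.58 and -0.60 in the control samples. Neuronal classes had control 1 apart from the other 3 arrays. The glial median rests on 3 kept genes, of which Sox10 and Erbb3 were high in the samples numbered 1 and Ednrb split by group, while S100b, not kept, was high in control 1 alone. No test was made of the difference between classes.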

How the data were processed

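Total ileal RNA was labelled with Cy3, per the labels' protocols, and hybridised to 4 single-colour Agilent arrays on 1 slide, read in 1 scan. Controls lay at positions 1 and 2 and metformin samples at positions 3 and 4, so position and treatment cannot be told apart. The deposited scanner files hold spot intensity on a linear scale, background-subtracted and detrended by Agilent Feature Extraction 10.7.3.1, per the file headers. The deposited series table equalled the raw median signal intensity for 38983 of 38983 single-spot probes, so it was scaled like the rest and used as an alternative.

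Flagged spots were dropped, spots averaged per probe, and each array's 75th percentile of log2 signal over probes subtracted (39429 probes, 47 dropped). These percentiles were 866.3 and 1071.5 signal units in the metformin samples and 917.8 and 1454.4 in the control samples. Between 65.1% and 69.1% of probes were well above background on an array, and 0 were saturated. With 2 samples a group, the number of arrays limits the precision. RefSeq accessions named 27470 probes (GRCm38.p6 table) and left 11912 unnamed, and the brightest kept probe of each of 21649 genes was tested, two-sided, with limma 3.58.1 in R 4.3.3 at a Benjamini-Hochberg adjusted p of 0.05 (residual df 2, prior df 2.43). The fit was tested on simulated data.

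A bound sets control 1 against the higher of the dim array's own value and its lowest signal well above background, and for a gene dim in a whole group the means are set the same way. Alternatives were normexp (offset 50, on the median signal, since the mean signal column was not used here), quantile scaling, other dim-probe filters, the probe rule, the deposited table, a replicate block and each sample left out. The members, gene lists and alternatives were chosen with earlier results of these data known. All members are named; differences with SE are given for up to 4 kept members of smallest p in each class, and values for the first 2 kept genes of each companion list, except some that are not reported here.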

Additional observations from a re-analysis of the deposited data

How the results depend on the processing

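The count of 0 genes called by limma held under every alternative run. The median log2 difference of the kept members, -0.83 with all arrays, ranged from -1.48 (without control 2) to 0.10 (without control 1) as each sample was left out, and was 0.084 for metformin 2 against control 2 alone, an alternative added after seeing the data. It was -0.22 with normexp background correction and -0.40 in the deposited table; the cause was not tested. The neuropeptide median ranged from -2.04 to -0.12 and the neuron structure median from -3.09 to -0.14 as samples were left out, the last being 0.22 for metformin 2 against control 2 alone. The neuropeptide median was -0.03 on probes well above background on every array, which leaves out Vip, and -1.24 with no filter; the neuron structure median was -0.31 with normexp and -0.74 in the deposited table. The count of members at least 2-fold lower without overlap, 5 with all arrays, was 0 with normexp (0.536% of all genes) and 2 in the deposited table (0.91%), against 2.32% of all genes in the setting reported. With a sample left out, non-overlap comes more easily for every gene: the count was 1 without control 1 (4.41% of all genes), 14 without control 2 (5.89%), 6 without metformin 1 (3.95%) and 11 without metformin 2 (8.22%). Members lower without overlap numbered 1 with normexp (4.35%, against 5.27% of all genes) and 3 in the deposited table (13%, against 6.27%). In the setting reported they numbered 6 (26.1%, against 8.57%). Among the 16 members with an SE, the direction turned only when a sample was left out, with log2 differences from -4.26 to 0.45 for Hand2, -0.75 to 0.18 for Ret, -0.56 to 0.83 for Sox10, -0.65 to 0.68 for Erbb3, -3.03 to 0.56 for Gal, -0.65 to 0.71 for Scg2, -1.48 to 0.29 for Slc18a3 and -0.61 to 0.24 for Chat. A replicate block cannot alter a group difference in this balanced layout, so its median of -0.83 says nothing on stability, and limma called 0 genes with it. The gap between samples 1 and 2 correlated across genes between the groups (r = 0.563, 21649 genes), but with only 2 pairs and no label on what a number shares, the numbers were not taken to pair the samples. Dim probes limit the size of every fold given for Vip, Stmn2, Uchl1, Nefl, Npy and S100b, and other folds may be limited too. With normexp the 5 members counted above had log2 differences of -1.01 (Vip), -0.97 (Penk), -0.85 (Tubb3), -0.72 (Gfra2) and -0.06 (Elavl3). In the setting reported these were -3.76, -2.55, -1.96, -1.58 and -1.21. Hand2 had -0.71 with normexp and -1.91 in the setting reported. Whether low signal was the cause was not tested.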
